A study of Mus musculus with 5 samples.

Results

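The binding sites of 2 transcription factors, Foxf1 and Hand1, were examined at 10 genes of the forkhead family: Foxf1, Foxf2, Foxc1, Foxc2, Foxl1, Foxq1, Foxp1, Foxa2, Foxd3 and Foxo1. A site was any deposited peak whose summit lay inside 1 of these genes or within 100 kb of either end, and each site was counted once even where it was near several of the genes. By this rule 12 of the 5703 peaks in the Foxf1 list and 0 of the 1134 peaks in the Hand1 list were sites of the forkhead loci.

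The lists come from chromatin immunoprecipitation followed by sequencing (ChIP-seq) in E14, a mouse embryonic stem cell line taken through directed cardiac differentiation. Cells were grown as embryoid bodies for 48 h and then re-aggregated for 40 h with VEGF (5 ng/mL), Activin A (10 ng/mL) and BMP4 (0.3 ng/mL), to a stage abbreviated MES. For the stage abbreviated CP they were plated for a further 32 h with VEGF (5 ng/mL), basic FGF (10 ng/mL) and FGF10 (25 ng/mL). Hand1 carried an HA tag knocked into its own gene and was precipitated at MES (1 library). Foxf1-HA came from an inducible overexpression line and was precipitated at CP, in 2 libraries, of which the list labelled replicate 1 was used. Both precipitations used a homemade anti-HA antibody, and each stage had 1 input library. The promoter and inducer of the Foxf1-HA construct, and whether either line was 1 clone, are not given in the sources used here. Factor, stage and manner of expression differ together between the lists and cannot be told apart. With 1 list per factor no value has a replicate error and no difference was tested. Peak lists carry no expression values, so the labelled cell type could not be checked against marker genes, nor the level of any forkhead gene.

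Forkhead proteins bind DNA through a winged-helix domain that prefers words such as GTAAACA. Foxf1 is required in lateral plate and splanchnic mesoderm, where it acts downstream of Hedgehog signalling, and Foxf2 is its close relative in mesenchyme. Foxc1 and Foxc2 act in paraxial mesoderm, vessels and the cardiac outflow tract, and Foxl1 in gut mesenchyme. Several of these genes lie side by side in the genome as old tandem copies. Hand1 is a basic helix-loop-helix factor of heart and extra-embryonic mesoderm, whose class binds E-boxes (CANNTG).

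The sequences just before the gene starts are shown first, because no Foxf1 peak reached any of them. RefSeq promoter entries (GRCm38.p6) were matched for 6 of the 10 genes, Foxf2, Foxc1, Foxa2, Foxd3, Foxo1 and Foxp1, with 10 starts in all. The 250 bases before the start, read in the direction of the gene, are printed for the 4 of them that had a Foxf1 site within 10 kb, and for Fendrr, the lncRNA gene next to Foxf1. Fendrr holds no site and was added after its window had been seen. Capitals mark the forkhead word GTAAACA and E-boxes.
Foxf2: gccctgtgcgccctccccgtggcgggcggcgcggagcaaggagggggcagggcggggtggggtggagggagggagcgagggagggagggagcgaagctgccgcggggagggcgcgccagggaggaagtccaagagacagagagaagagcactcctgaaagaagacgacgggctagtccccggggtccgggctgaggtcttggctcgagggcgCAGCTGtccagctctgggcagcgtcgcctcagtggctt
Foxc1: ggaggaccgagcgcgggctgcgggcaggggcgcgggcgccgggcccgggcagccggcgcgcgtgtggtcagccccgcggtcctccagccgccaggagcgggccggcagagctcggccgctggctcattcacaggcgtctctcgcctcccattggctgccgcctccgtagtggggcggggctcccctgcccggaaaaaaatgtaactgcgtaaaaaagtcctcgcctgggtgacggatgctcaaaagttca
Foxd3: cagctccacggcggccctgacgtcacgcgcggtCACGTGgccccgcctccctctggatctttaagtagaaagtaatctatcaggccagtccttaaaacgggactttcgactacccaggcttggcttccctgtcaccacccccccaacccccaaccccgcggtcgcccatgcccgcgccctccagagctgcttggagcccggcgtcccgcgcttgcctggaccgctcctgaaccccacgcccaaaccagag
Foxo1: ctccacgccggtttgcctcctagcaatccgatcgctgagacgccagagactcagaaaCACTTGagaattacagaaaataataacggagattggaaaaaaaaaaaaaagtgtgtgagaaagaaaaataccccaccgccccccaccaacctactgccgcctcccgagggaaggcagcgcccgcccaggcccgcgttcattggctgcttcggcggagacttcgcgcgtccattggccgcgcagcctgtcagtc
Fendrr: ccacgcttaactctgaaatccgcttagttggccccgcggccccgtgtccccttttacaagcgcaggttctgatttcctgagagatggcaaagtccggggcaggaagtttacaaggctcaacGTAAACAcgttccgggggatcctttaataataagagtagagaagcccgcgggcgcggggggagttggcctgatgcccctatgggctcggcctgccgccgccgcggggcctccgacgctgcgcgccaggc
These windows are chr13:31625566-31625815 (Foxf2, plus strand), chr13:31806396-31806645 (Foxc1, plus strand), chr4:99656049-99656298 (Foxd3, plus strand), chr3:52268087-52268336 (Foxo1, plus strand) and chr8:121083111-121083360 (Fendrr, minus strand).

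The word GTAAACA was searched on both strands. So were 2 related words, GTAAATA, which ends differently, and the variant ATAAACA. None of the 4 printed forkhead gene windows held any of them. Over the 10 windows of the 6 genes, 2 held 1 of the words, both at starts of Foxp1 and both with ATAAACA. Among all 32841 windows, GTAAACA occurred in 3.17%. The share was 2.73% for GTAAATA and 4.16% for the variant ATAAACA, and 9.45% held any of the words. Windows of 2 neighbours of Foxf1 were also searched. The Fendrr window held GTAAACA, beginning 129 bases before the start. The window of Mthfsd, the gene in which 2 Foxf1 sites near Foxf1 lie, held none of the forkhead words and had the E-box CAGGTG. An E-box was found in 7 of the 10 windows, against 66.2% of all windows. The E-boxes above were CAGCTG at Foxf2, CACGTG at Foxd3 and CACTTG at Foxo1, and the Foxc1 window had none. CATCTG and CATATG, forms of the E-box, were in 0 of the 10 windows (14.4% and 3.47% of all windows). The 4 printed forkhead gene windows held 71.6% G and C at Foxf2, 70.8% at Foxc1, 65.6% at Foxd3 and 56.0% at Foxo1. The 10 windows ran from 45.2% to 74.0%, and the median of all windows was 52.4%. A match of letters is a description and does not show binding.

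A Foxf1 site lay within 100 kb of 9 of the 10 genes, Foxp1 being the exception. The same held for 53.3% of all 21887 protein-coding genes. The 9 genes are not 9 separate observations, because Foxf1, Foxc2 and Foxl1 shared the same 3 sites and Foxq1 and Foxf2 shared the same 2. At least 2 sites were counted at 7 of the 10 genes (31.0% of protein-coding genes) and at least 3 at 4 of them (17.6%). At 10 kb the count was 7 of 10 genes, where 22.7% of protein-coding genes had a site that near. It was 8 of 10 at 50 kb (41.7% of protein-coding genes) and 10 of 10 at 250 kb (69.8%). A summit lay inside 2 of the genes, Foxc1 and Foxq1, against 11.0% of protein-coding genes. The genes were listed with results of these data known, so the shares describe the loci and were not tested.

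**Figure D1:**
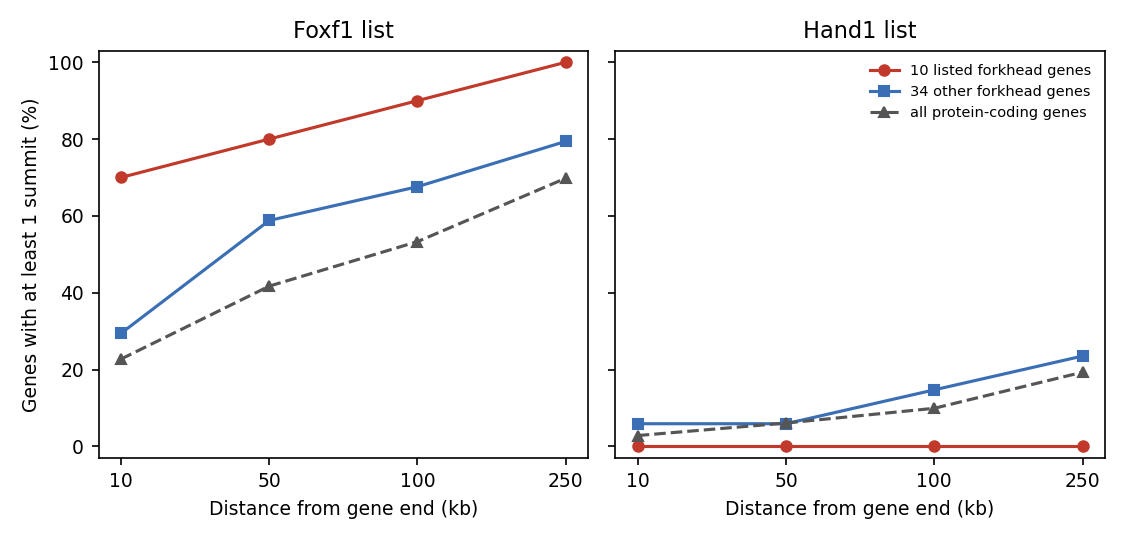
Share of genes (vertical axis, percent) with at least 1 summit inside the gene or within 10, 50, 100 or 250 kb of either end (horizontal axis, equally spaced steps), for the Foxf1 list (left) and the Hand1 list (right). At 100 kb the 10 listed forkhead genes stand at 90.0% for Foxf1 and 0% for Hand1, and all protein-coding genes at 53.3% and 9.90%.

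At the locus of Foxf1 itself, all 3 sites lay on its higher-coordinate side, in the 28.0 kb between Foxf1 (gene ID 15227, chr8:121084386-121088154) and Foxc2 (gene ID 14234, chr8:121116171-121118895). None lay inside Foxf1. The site nearest to Foxf1, at chr8:121092656-121093070, was 4.70 kb from its end and 23.3 kb from Foxc2, with a fold enrichment of 7.43. Fold enrichment is the authors' value for the summit over the peak caller's background, on a linear scale. From this fold and the deposited p-value, 39 fragments were inferred at the summit, against a control level of 4.38.

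The middle site, at chr8:121104034-121104903, was 16.1 kb from Foxf1 and 11.9 kb from Foxc2. It was the weakest of the 12 by fold (5.27, with 44 fragments over a control level of 7.55), and 3.81% of the list had a lower fold. The third, at chr8:121113269-121113684, lay between genes, 2.71 kb from Foxc2 and 25.3 kb from Foxf1. Its fold was 9.06, and its 61 fragments were the most of the 12 sites.

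The first and middle of these sites lay inside Mthfsd (chr8:121091628-121108413), a protein-coding gene that fills most of the interval and is not a forkhead gene. Giving each site only to its nearest protein-coding gene therefore leaves Foxf1 with 0 sites, Foxl1 with 0 and Foxc2 with 1. Sites near the gene of the tagged factor were thus found by distance and not by nearest gene. Foxl1 (gene ID 14241, chr8:121127685-121130644) had the same 3 sites at 14.2 kb, 23.4 kb and 34.8 kb. There was no site in the 8.79 kb between Foxc2 and Foxl1. On the side of Fendrr (chr8:121054882-121083110), whose end lies 1.28 kb from Foxf1, the next Foxf1 peak was 114 kb from Foxf1 with a fold of 7.40. On the other side the next was 104 kb from Foxl1 with a fold of 7.01. These 2 were the peaks just outside the limit, and the farthest sites just inside it were 71.8 kb from Foxo1 and 65.2 kb from Foxa2.

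The 3 summits spanned 20.6 kb. Of the 5663 Foxf1 summits on named chromosomes, 475 (8.39%) belonged to runs in which at least 3 summits fell within such a span, and there were 115 runs. Chromosome 8 was dense in Foxf1 peaks, with 0.484 peaks per protein-coding gene, and 75.6% of its genes had a site within 100 kb and 38.5% had at least 3. On the 17 autosomes other than 6 and 8, peaks per gene ran from 0.191 to 0.320 and genes with at least 3 sites from 6.51% to 31.3%. The median control level of Foxf1 peaks was 4.14 on chromosome 8 and 2.68 to 2.92 on those 17. Chromosome 6 was dense too, with 0.429 peaks per gene, 25.1% of genes with at least 3 sites and a median control level of 3.71. The control levels at the 3 sites, 4.38 to 7.55, were the highest of the 12. The part of the control level in the number of sites at Foxf1 was not tested. A further 1447 protein-coding genes (6.61%) had the same pair of counts as Foxf1, 3 Foxf1 sites and 0 Hand1 sites within 100 kb.

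**Figure D2:**
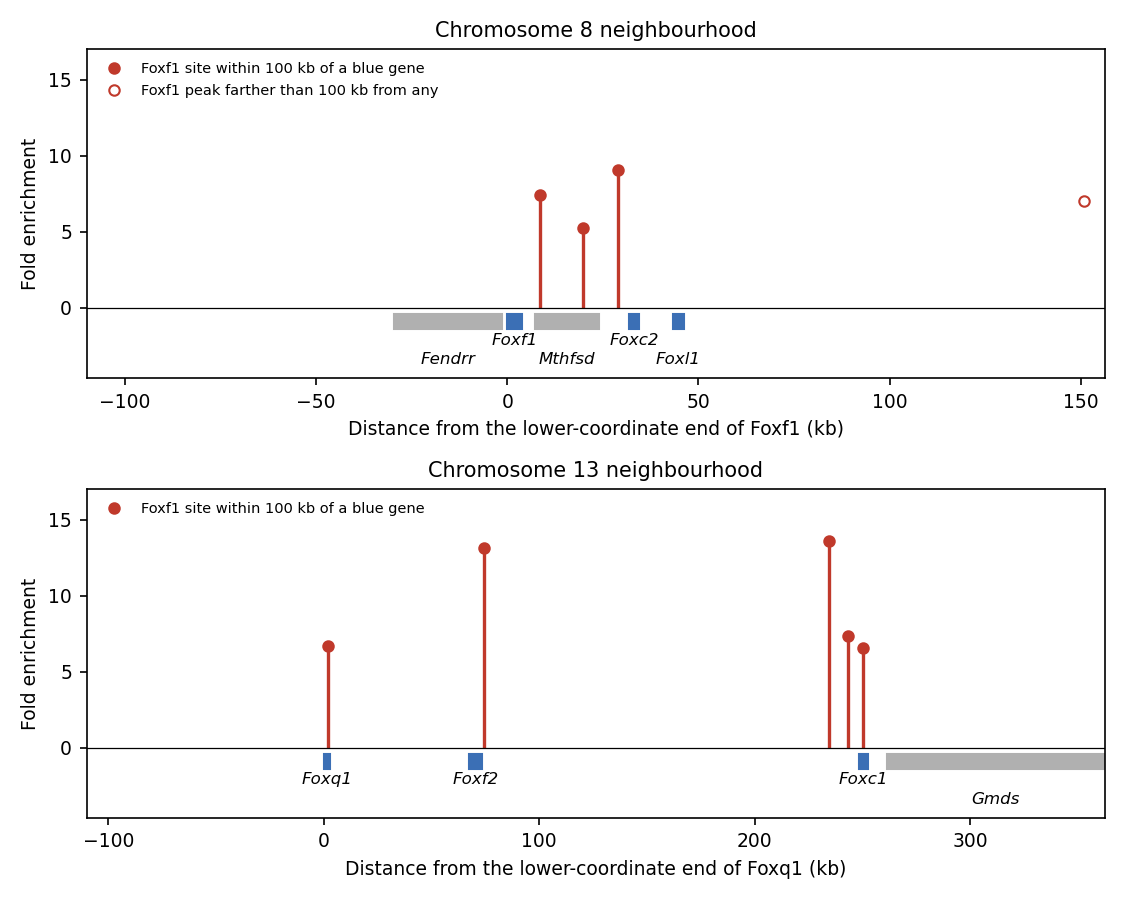
Foxf1 peaks around the chromosome 8 genes (top) and the chromosome 13 genes (bottom), with distance in kb on the horizontal axis and fold enrichment on the vertical axis. Blue boxes are the listed forkhead genes, grey boxes neighbouring genes (Gmds runs on past the edge), filled circles sites and the open circle a peak beyond 100 kb. The 3 chromosome 8 sites sit between Foxf1 and Foxc2, while the 5 chromosome 13 sites are spread over 248 kb.

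On chromosome 13, Foxq1, Foxf2 and Foxc1 spanned 252 kb and had 5 sites. At Foxf2 (gene ID 14238, chr13:31625816-31631406, plus strand) a site at chr13:31632346-31632853 lay 1.21 kb past the end of the gene, 6.80 kb from its start. Its fold was 13.1 (47 fragments, control level 2.68), and 94.4% of the list had a lower fold.

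Foxc1 (gene ID 17300, chr13:31806646-31810635, plus strand) had 3 sites of its own. The farthest, at chr13:31792483-31792892, lay 14.0 kb before the start and had the highest fold of the 12 sites, 13.6 (39 fragments, control level 1.95). In the whole list 95.3% of peaks had a lower fold. The second, at chr13:31801191-31801547, lay 5.28 kb before the start with a fold of 7.35 (35 fragments, control level 3.89). The third, at chr13:31807636-31808502, had its summit inside Foxc1, a gene without introns, 1.63 kb from the start. It was among the weaker peaks, with a fold of 6.53 and 23 fragments, and 22.2% of the list had a lower fold.

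Foxq1 (gene ID 15220, chr13:31558170-31560976), known for roles in epithelia and hair, is also a gene without introns. It held a site at chr13:31559522-31560229 with a fold of 6.66 (30 fragments, control level 3.65). The site beside Foxf2 was 71.6 kb from Foxq1, and the site in Foxq1 was 65.8 kb from Foxf2. No summit lay in the 64.8 kb between these genes. The 175 kb between Foxf2 and Foxc1 held 3, of which 1 was beside Foxf2 and 2 were beside Foxc1. Chromosome 13 was sparse in Foxf1 peaks: 41.6% of its protein-coding genes had a site within 100 kb, the lowest share of those 17 autosomes. At least 3 sites, as at Foxc1, were counted at 6.51% of its genes.

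Foxd3, a factor of pluripotent cells and neural crest (gene ID 15221, chr4:99656299-99658671, plus strand), had 1 site, at chr4:99660992-99661535. It lay 2.51 kb past the end of the gene and had a fold of 9.99 over the lowest control level of the 12 sites (26 fragments, control level 1.70). In the list 82.2% of peaks had a lower fold.

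Foxo1, the insulin-regulated forkhead factor that is also needed in vessels (gene ID 56458, chr3:52268337-52350109, plus strand), had 2 sites, both before its start. The nearer, at chr3:52262450-52262801, was 5.73 kb away with a fold of 6.70 and 22 fragments, the fewest of the 12. The farther, at chr3:52196249-52196732, was 71.8 kb away with a fold of 8.07 (23 fragments).

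Foxa2, a factor of node, notochord and endoderm (gene ID 15376, chr2:148042877-148046969, minus strand), had its only site 65.2 kb before its outermost listed start, at chr2:148111986-148112338. The fold was 8.14 (23 fragments, control level 1.95). At a 50 kb limit Foxa2 had no site.

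Foxp1, a factor of heart, lung and lymphocytes, was by far the longest of the genes (gene ID 108655, chr6:98925342-99522746, 597 kb, minus strand) and had no site. Its whole window of 797 kb held no listed Foxf1 peak, and the nearest, at chr6:99670670-99671196, was 148 kb away with a fold of 5.16. Among the 557 protein-coding genes of 300 kb or longer, 47.6% had a site by the same rule and 29.4% had a summit inside, so a long gene without a site was common. Chromosome 6 was dense in Foxf1 peaks, with 0.429 per protein-coding gene and a median control level of 3.71. A site within 100 kb was counted at 62.1% of its genes. The numbers in the deposited peak names ran in coordinate order, and 199 of them fell between the listed peaks on either side of Foxp1, a stretch of 1400 kb. Numbered calls that are not in the list were not analysed here.

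In strength the 12 sites were spread over the ranks of the list, and the share of peaks with a lower fold ran from 3.81% to 95.3%. Their folds ran from 5.27 to 13.6 with a median of 7.75. The whole list ran from 1.29 to 61.3 with a median of 7.62, and 6 of the 12 sites were above that median. The inferred fragments ran from 22 to 61, with a median of 32.5 against 29 in the list. By fold the highest pair, at Foxc1 and Foxf2, ranked 264 and 316 of 5703. By the deposited −log10 q-value the order changed: Foxf2 was first (37.2), then the site beside Foxc2 (36.0) and the far Foxc1 site (32.7). No site had a high control level, meaning at least 5 times the lowest of the list (limit 7.83), though the middle chromosome 8 site came close at 7.55. All 12 were peaks with a single summit, 352 to 870 bp wide. Summits inside a protein-coding gene numbered 4 of 12, in Foxc1, Foxq1 and Mthfsd, against 49.4% of the list. By distance to the listed forkhead genes 8 of 12 lay inside or within 10 kb, and of the whole list 77.8% lay that near to some protein-coding gene. These are unlike measures, since the middle chromosome 8 site was 11.9 kb from the nearest listed gene but inside Mthfsd.

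**Figure D3:**
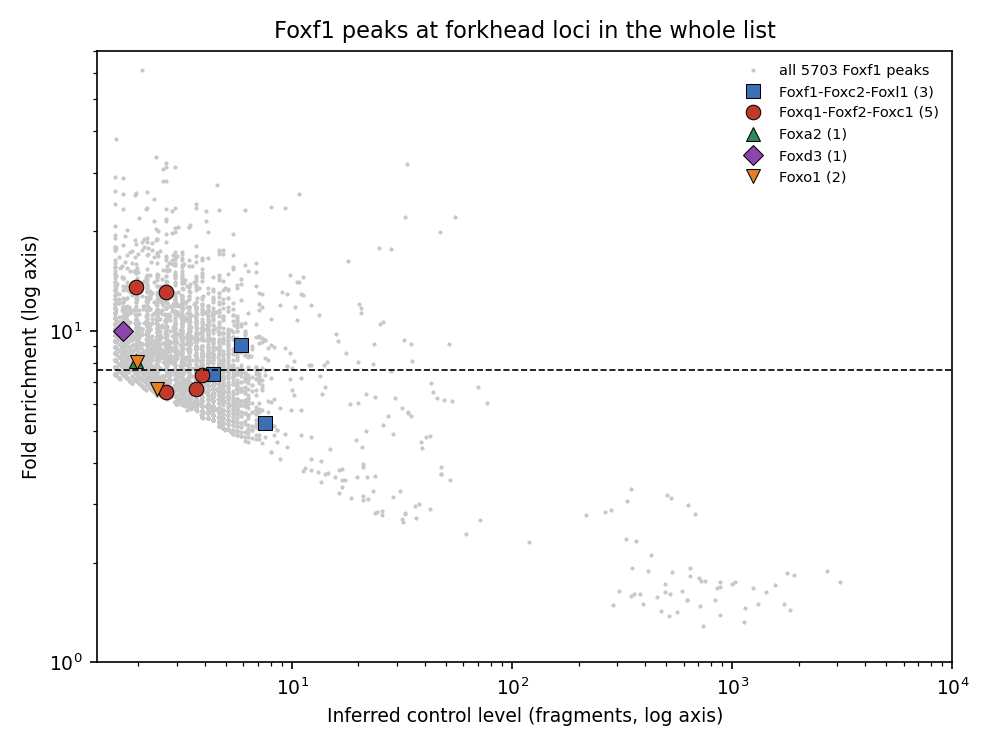
Fold enrichment (vertical, log axis) against the inferred control level (horizontal, log axis) for all 5703 Foxf1 peaks (grey) and the 12 sites at forkhead loci (coloured by locus), with the list's median fold of 7.62 as a dashed line. The chromosome 8 sites lie to the right, at control levels of 4.38 to 7.55, and 2 chromosome 13 sites lie highest, at folds of 13.1 and 13.6.

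Hand1 had no site at any of the 10 genes, and none within 250 kb. A Hand1 site within 100 kb was found for 9.90% of protein-coding genes, so a count of 0 among 10 genes is close to that background. The counts at 10, 50 and 250 kb were also 0, where the shares of all protein-coding genes were 2.80%, 6.06% and 19.3%. The nearest Hand1 peak was 449 kb from Foxl1, 460 kb from Foxc2 and 491 kb from Foxf1, a single peak at chr8:121579112-121579404 with a fold of 12.5. For Foxo1 the nearest was 909 kb away, with a fold of 16.9. For Foxd3, Foxc1, Foxf2 and Foxq1 the distances were 1170 kb, 1240 kb, 1420 kb and 1490 kb, and for Foxa2 and Foxp1 they were 3890 kb and 4860 kb. Accordingly no Foxf1 site of the forkhead loci overlapped a Hand1 peak. The Hand1 list stops at a −log10 q-value of 5.01 and its weakest summit held 13 fragments, so weaker Hand1 signal at these genes was not detectable from it. Between the listed Hand1 peaks on either side of the Foxf1 neighbourhood, 1400 kb apart, 92 numbered calls are not in the list.

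For comparison the other 34 forkhead genes were counted in the same way. A Foxf1 site lay within 100 kb of 23 of them (67.6%), against 53.3% of all protein-coding genes. A Hand1 site lay within 100 kb of 5 (14.7%), against 9.90%. All 5 of those, Foxh1, Foxk1, Foxn3, Foxo6 and Foxr1, also had a Foxf1 site. The same share over all genes with a Hand1 site is not given here. The 5 with most Foxf1 sites were Foxh1 and Foxk1 with 6 each, Foxj2 and Foxn1 with 5 each and Foxa3 with 4, all more than the 3 at Foxf1. Foxh1 is the forkhead cofactor of Nodal and Activin signalling. It had a Hand1 summit 0.0830 kb outside the gene, at chr15:76667597-76668233, with a fold of 6.56 and 17 fragments. Both values were below the medians of the Hand1 list, 7.92 and 26. The nearest Foxf1 peak there, at chr15:76661138-76661578 (fold 10.7), was 6.50 kb from the gene and did not overlap the Hand1 peak.

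Peaks of both factors coincided at 2 of these genes. The share of all genes with such a pair is not given here, so this count has no background to be judged by. Inside Foxk1, a Hand1 peak at chr5:142416159-142416551 (fold 6.12) and a Foxf1 peak at chr5:142416227-142416663 (fold 7.78) had summits 43 bp apart. The Hand1 peak held 13 fragments, the fewest in its list. Beyond Foxn3, at 81.9 kb, a Hand1 peak at chr12:99645465-99645698 (fold 22.3, 99 fragments) and a Foxf1 peak at chr12:99645473-99645676 (fold 9.82, 59 fragments) had summits 9 bp apart. Control levels of this pair were 3.49 for Hand1 and 5.11 for Foxf1, against 1.29 and 4.14 for the pair in Foxk1. The list medians were 1.74 and 2.92. At Foxo6 the nearest Foxf1 summit was 0.650 kb from the gene (fold 10.2) and the Hand1 summit 71.5 kb. At Foxr1 they were 13.5 kb and 98.3 kb. The difference between the 10 listed genes and the other 34 was not tested, since the 10 were chosen with results known.

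**Figure D4:**
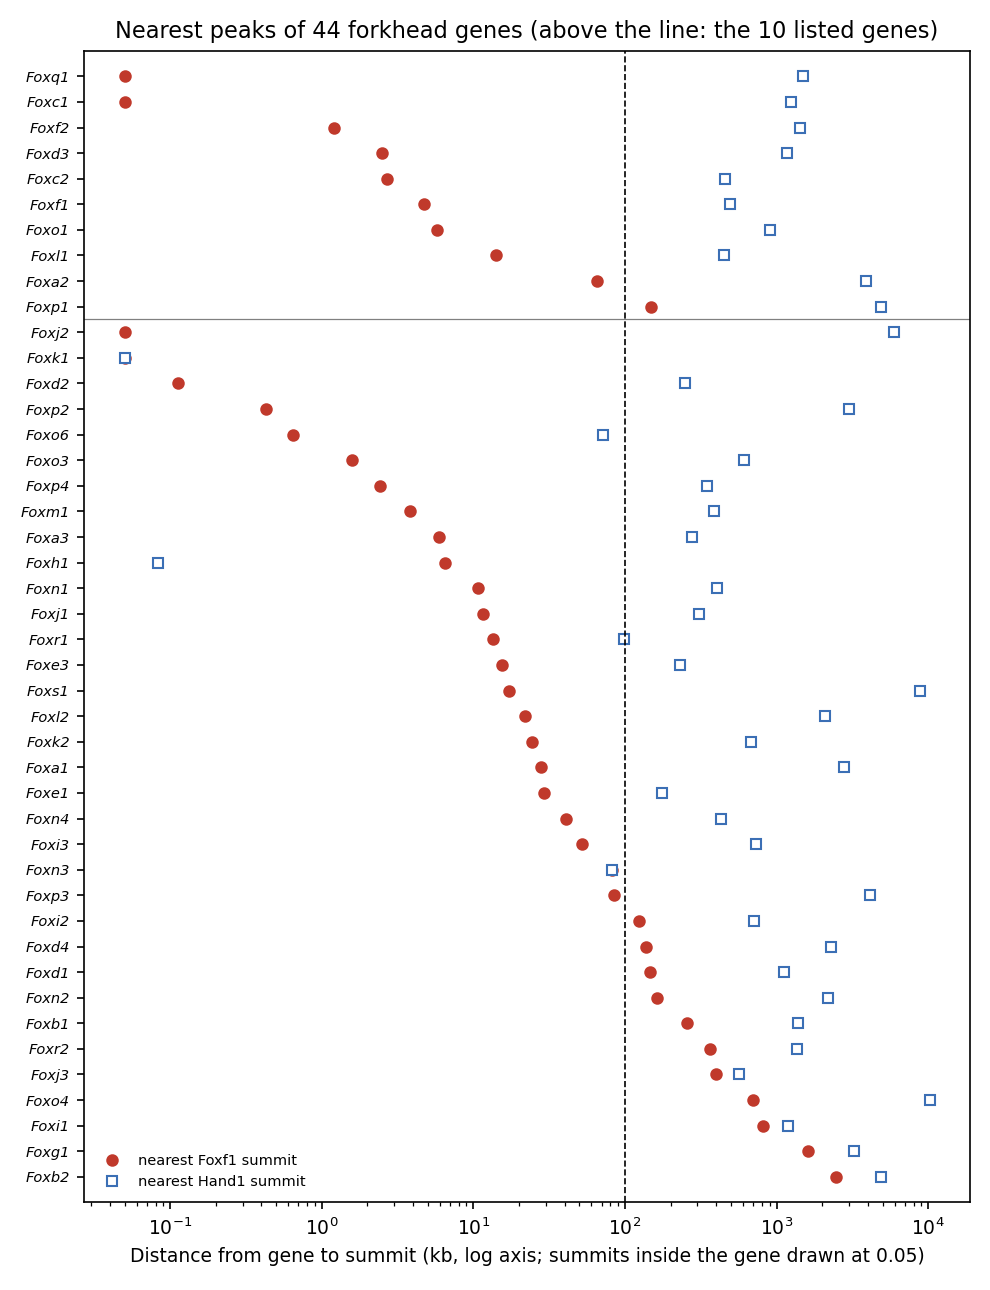
Distance in kb (log axis) from each of 44 forkhead genes (rows) to the nearest Foxf1 summit (filled circles) and Hand1 summit (open squares), with the 10 listed genes above the grey line and 100 kb dashed; at Foxk1 and Foxn3 the 2 symbols coincide. For the 10 listed genes the nearest Hand1 summits all lie at 449 kb or beyond. For 9 of these genes the nearest Foxf1 summit lies at 65.2 kb or nearer, and Foxc2 and Foxl1 share the same one.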

How the data were processed

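The series has 5 samples in 4 groups, and the peak lists of 2 samples were analysed. The submitters' processing notes name Trim Galore 0.6.6, Bowtie2 2.3.4.3, SAMtools 1.9, deepTools 3.5.0, MACS2 2.2.7.1 and build mm10. Settings, the control used and pooling of libraries are not given in the sources used here. The deposited lists hold, per summit, a fold enrichment (a ratio), a −log10 p-value, a −log10 q-value and a score, each the authors' value. The lowest −log10 q-value was 5.01 (Hand1) and 10.0 (Foxf1), so the lists have different limits.

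Fragments k and control level λ at each summit were inferred. The deposited fold was set to (k + 1)/(λ + 1) and the deposited p to the upper Poisson tail beyond k, and the solution with the higher λ was kept. Neither is a deposited value. k was whole within 0.05 for 100% of lines. The solver was also run on 300 peaks simulated with these same formulas, and the outcome is not given here. Such a run checks the solving and not whether the formulas hold for the deposited values. Library depth is unknown. Genes came from the RefSeq table of GRCm38.p6, which is the assembly that mm10 names (all 44 forkhead symbols matched; 21887 protein-coding genes on named chromosomes), with strands from its promoter entries. Python 3.11.15, pandas 2.3.3 and SciPy 1.17.1 were used. The genes and lists were chosen with earlier results of these data known. Every listed gene and site is named. Other forkhead genes are named where they had sites of both factors or were among the 5 with most Foxf1 sites, and further genes where they hold a site. Fendrr and Gmds, neighbours that hold no site, were added after the values were seen. Alternatives were the window, q-value limits, control level, region counting, overlap rule and nearest-gene assignment. Proteins and the sequences under the peaks were not analysed here.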

Additional observations from a re-analysis of the deposited data

How the results depend on the processing

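Of 69 alternatives for the 9 counts over the loci, 65 stayed within 1.5 times the reported count. The exceptions were a 250 kb window, which gave 20 Foxf1 sites at the forkhead loci and 8 in the Foxf1-Foxc2-Foxl1 neighbourhood, and a −log10 q-value of at least 20, which gave 4 sites in all and 2 in the Foxq1-Foxf2-Foxc1 neighbourhood. The 4 were the sites beside Foxf2 and nearest to Foxf1 and Foxc2, and the far Foxc1 site. Many of the alternatives could not change a count, so 65 of 69 is not a measure of stability. A −log10 q-value of at least 10, the control limit and region counting could remove none of the 12 Foxf1 sites. The genes with a Foxf1 site numbered 6 to 10 of 10 over its alternatives. Every Hand1 count and every overlap was 0 in each alternative run, an outcome fixed in advance. The nearest Hand1 peak lay 449 kb from a listed gene, beyond the widest window of 250 kb, and the other settings add no peak. Of 160 counts per gene, 29 moved by more than 1.5 times or changed to or from 0, all of Foxf1 sites. The Hand1 counts among the 160 could only be 0, so 29 of 160 is not a measure of stability either. No paired analysis was possible because each factor had a single list. Leave-one-out fits could not be made either. The fragment numbers are inferred and cover counting only. Peaks under the lists' limits cannot be seen.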
